A study of Mus musculus with 16 samples.

Results

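The transcriptome of the tibialis anterior was compared between mice given recombinant GDF15 and mice pair-fed to them, so that the amount of food was matched and treatment differed. The tibialis anterior is a mostly fast-twitch muscle at the front of the lower leg. All genes of the table were compared between the 6 GDF15-treated mice, numbered 1 to 6, and the 5 pair-fed mice, numbered 2 to 6, which are 11 of the 16 libraries of the series. The other 5 libraries come from vehicle-treated mice and are set beside the comparison where they help to read it.

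All mice were wild-type C57BL/6 males on a NASH diet, a diet rich in fat, mostly palm oil, and fructose that produces fatty liver disease, at about 29 °C from 8 weeks of age, and each was housed alone. GDF15 was injected under the skin once daily in the morning, and the labels name 0.3 nmol/kg, 1 nmol/kg and 5 nmol/kg as possible doses without saying which of them these 6 mice had. The food of the pair-fed mice was limited to what GDF15-treated mice had eaten, with a lag of 1 day. At its higher doses the study reports more weight loss with GDF15 than with pair-feeding, so the groups may also differ in body mass. Each library is 1 mouse. The age at collection, the number of days of treatment and the hours at which these pair-fed mice were fed are not given in the sources used here.

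GDF15 is a stress hormone that signals through GFRAL, a receptor of the hindbrain, and lowers food intake. Muscle lacks this receptor, and the brain acts on muscle through nerves, hormones and the supply of fuel. In muscle, noradrenaline acts through beta-adrenergic receptors and cAMP, growth hormone through the kinase JAK2 and the transcription factor STAT5, and glucocorticoids through a nuclear receptor. Fasting and food restriction act through falling insulin, which releases FOXO factors to switch on autophagy and protein breakdown.

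The libraries held about 9482763 to 13831272 reads in the GDF15-treated mice, 11779669 to 14813450 in the pair-fed mice and 11883587 to 15039282 in the vehicle-treated mice, and the 3 shallowest libraries were from GDF15-treated mice. The mean Pearson correlation of a library with the others of its group, across genes, lay between 0.979 and 0.984, and no library stood apart. All 9 markers of skeletal muscle fibres were present, with summed levels of 2035988 to 2230722 normalized counts with GDF15 and 2158317 to 2404008 in pair-fed mice. Summed fibroblast markers (7 genes, all with a higher mean with GDF15, none with an adjusted p under 0.1) lay at 4088 to 7335 normalized counts with GDF15 and 3157 to 6496 in pair-fed mice. Summed macrophage markers (8 genes, likewise all higher and none past the test) lay at 192 to 468 and 145 to 449, and tendon markers at 1833 to 5311 and 1165 to 3836. Summed Schwann cell markers (7 tested genes, all with a higher mean with GDF15) lay at 1125 to 1538 and 629 to 1643, with 2 genes at an unadjusted p under 0.05, and Mbp, which encodes a myelin protein, had the smallest adjusted p of the other cell types' markers (0.73, adjusted p = 0.187). These ranges overlap, and 0 markers of other cell types passed limma's test, while 4 had an unadjusted p under 0.05.

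A gene's level is given below in normalized counts, which are scaled for the size of the library and not for the length of the gene. A difference is the mean of log2(normalized count + 1) with GDF15 minus that in pair-fed mice, from limma's moderated fit of all 3 groups. The test was passed at an adjusted p under 0.1, and a gene was called when its difference was also above 0.6 in size, the thresholds that the study used in this muscle. Of 11841 genes tested, 33 were called (0.279%), 16 of them higher with GDF15 (0.135%) and 17 lower (0.144%). At the adjusted p alone 257 genes passed (2.17%), 110 higher (0.929%) and 147 lower (1.24%), and 1559 genes (13.2%) had an unadjusted p under 0.05. These shares of all genes are the ones to set beside the counts within gene lists given below. The values of the 6 GDF15-treated and the 5 pair-fed mice did not overlap in 210 genes (1.77%), and 17 of the 33 called genes were among these. The differences between the groups were small for most genes: 22 of the 33 were below 1 in size on the log2 scale, and they ran from -4.37 for Cish to 1.23 for Ppp1r3c.

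**Figure D1:**
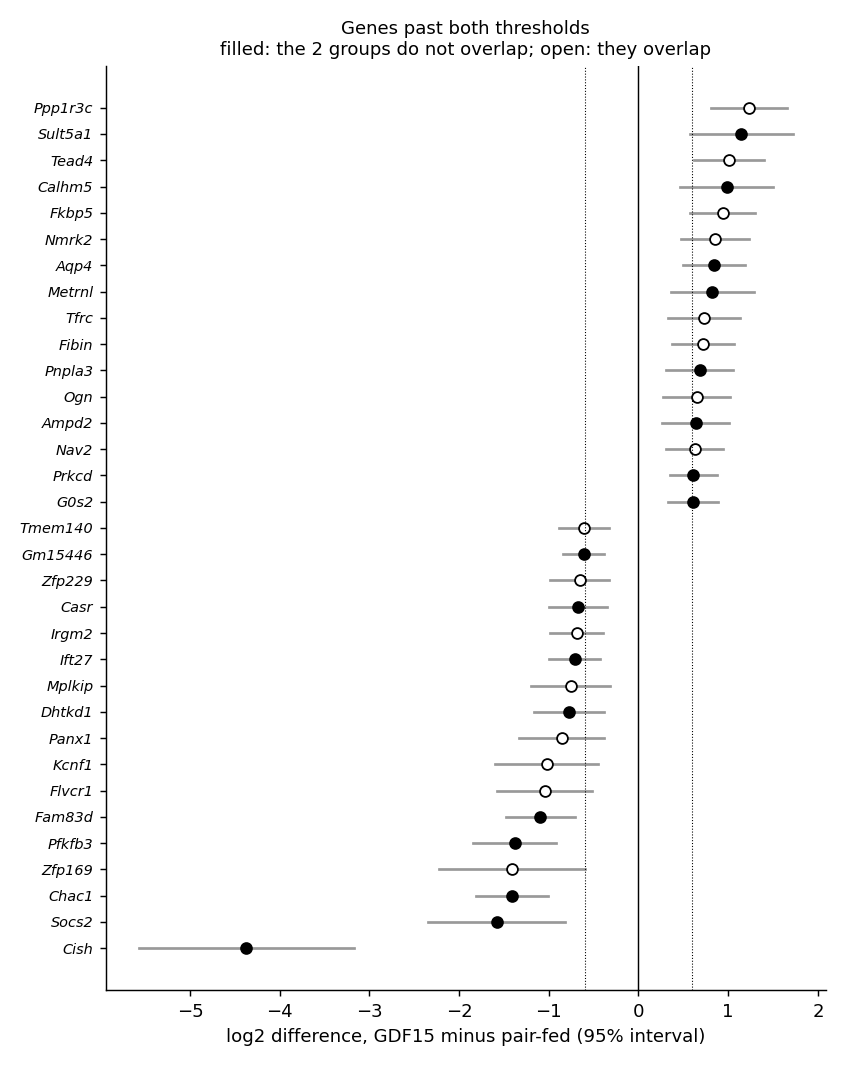
Differences of the 33 called genes (points, log2 scale, GDF15 minus pair-fed) with their 95% intervals (lines); dotted lines mark 0.6 in each direction. Filled points are the 17 genes whose 6 GDF15 and 5 pair-fed values do not overlap, and Cish at -4.37 lies far from the rest.

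The count of called genes depended on the scale and on single mice. On the deposited values it was 7 (3 higher, 4 lower), all among the 33. With 1 mouse left out it was 15 without pair-fed mouse 5, 17 without pair-fed mouse 2, 18 without pair-fed mouse 6, 19 without GDF15-treated mouse 4 and 21 without GDF15-treated mouse 2, and it rose to 62 without pair-fed mouse 3. Of the 33 genes 5, namely Cish, Chac1, Pfkfb3, Ppp1r3c and Fkbp5, were called under each of the 29 alternatives, which were 13 other settings and the 16 fits with 1 library left out. The split by direction moved with the scaling, to 21 higher and 14 lower genes with equal summed counts and 13 higher and 22 lower with quantile normalization. Below, the number of these in which a gene stayed called, or passed the test where it was not called, is given as "29 of 29".

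The largest differences were in genes of growth hormone and STAT5 signalling. Cish encodes an inhibitor of cytokine and growth hormone receptors whose transcription STAT5 switches on, so that it reads out and limits the pathway (chr9:107296026-107302784, + strand). Its level in GDF15-treated mice was 6.03, 16.3 and 69.9 normalized counts (lowest, median and highest of 6). In pair-fed mice 2 to 6 it was 308, 347, 411, 506 and 662, and in vehicle-treated mice it ranged from 92.7 to 805. Every GDF15-treated mouse was thus below every mouse of both other groups. The vehicle-treated mice fell into a low pair (mice 1 and 2) and 3 high mice. The difference from pair-fed mice was -4.37 (SE 0.57, adjusted p = 0.00243), which is 20.7-fold lower with GDF15, and that from vehicle-treated mice -3.76 (adjusted p = 0.00588).

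Socs2, a related STAT5-induced inhibitor that restrains growth hormone action (chr10:95385362-95417180, - strand), moved the same way. It lay at 52.7, 75.3 and 157 normalized counts (lowest, median, highest) with GDF15 and at 230.1, 226, 183, 324 and 257 in pair-fed mice 2 to 6. The 2 groups did not overlap, and the difference was -1.58 (SE 0.36, adjusted p = 0.0486), 3-fold lower with GDF15. Socs2 stayed called in 23 of 29 alternatives, and the call was lost without GDF15-treated mouse 4, without pair-fed mice 2, 5 or 6, with no trend and with depth as a covariate. Vehicle-treated mice ranged from 47.0 to 338, across both other groups. Vehicle-treated mice 1 and 2, the low pair in Cish, were also the lowest of their group in Socs2 (47.0 and 91.8). The same held in Chac1 (653 and 774) and Pfkfb3 (2207 and 2341), described below. These genes thus share their lowest mice in a group given no GDF15, and whether they vary together was not tested.

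Of the 32 tested genes on the growth hormone and STAT5 list, 5 passed the test, 2 higher and 3 lower, and the median difference was 0.02 against 0.0025 for all genes. Beside Cish, Socs2, Igf1r and Stat5a the fifth was Ptpn11, a phosphatase of growth factor signalling, with a difference of 0.19, named after its value was seen. Igf1r, the receptor of insulin-like growth factor 1, was lower (-0.41, SE 0.09, adjusted p = 0.0368, 26 of 29 alternatives), at 177 to 217 normalized counts with GDF15 and 225 to 275 in pair-fed mice, without overlap. Stat5a, 1 of the STAT5 factors, was higher (0.41, SE 0.10, adjusted p = 0.0577, 22 of 29). Its value against vehicle was -0.48 (adjusted p = 0.0165) in pair-fed mice and -0.07 (adjusted p = 0.85) with GDF15. The members upstream and beside them did not pass: Ghr, the growth hormone receptor, had a difference of -0.08 (95% interval -0.17 to 0.01), Stat5b one of 0.05 (-0.06 to 0.15), and Bcl6, a repressor that competes with STAT5 for its sites, one of 0.30 (-0.02 to 0.62). Igf1 had a wide interval (0.59, -0.23 to 1.41), and so did Socs3, the inhibitor induced mainly by STAT3 (-0.34, -1.08 to 0.40). The lower levels in this list were therefore in 2 inhibitors and Igf1r, with no difference detected in the receptor or in Stat5b.

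The promoter of Cish is shown because STAT factors bind palindromes with a spacer of 3 bases. The RefSeq sequence around its annotated start (GRCm38.p6, chr9:107296409-107296708, + strand, 250 bases before and 50 from the first base) holds TTCNNNGAA on 2 occasions, 1 at the first base and 1 starting 11 bases further on, given in capitals.
Cish: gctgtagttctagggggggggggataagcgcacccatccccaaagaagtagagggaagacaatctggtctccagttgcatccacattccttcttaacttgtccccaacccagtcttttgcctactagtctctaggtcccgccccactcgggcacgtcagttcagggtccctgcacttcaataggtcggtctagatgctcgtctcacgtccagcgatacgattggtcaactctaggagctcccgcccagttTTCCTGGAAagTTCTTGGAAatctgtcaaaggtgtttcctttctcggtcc
The pattern, read on both strands, occurs in 6.75% of 9471 promoters of tested genes. Among the called genes with a promoter sequence it was found in 4 of 16 lower genes (Cish, Gm15446, Ift27 and Irgm2) and 0 of 14 higher ones. A match is a run of letters and does not show that a factor bound there.

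Chac1 had the same adjusted p as Cish. It encodes an enzyme that breaks down glutathione in the cytosol and is induced by the stress factors ATF4 and CHOP (chr2:119351229-119354381, + strand). GDF15-treated mice had 474, 589 and 868 normalized counts (lowest, median, highest) and pair-fed mice 2 to 6 had 1753, 1682, 1169, 2202 and 1759. The groups were separated by a wide gap, with a difference of -1.41 (SE 0.19, adjusted p = 0.00243) or 2.66-fold lower with GDF15. Vehicle-treated mice had 653 to 1200.3, overlapping both groups, with 0.80 (adjusted p = 0.0363) for pair-fed and -0.61 (adjusted p = 0.219) for GDF15 against vehicle.

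No other gene of the ATF4 and CHOP list passed as lower. Of 43 tested, 1 passed as lower (Chac1) and 3 as higher, with a median of -0.02. The higher ones were Atf5, a transcription factor of the same family (0.32, SE 0.07, adjusted p = 0.0486), Cebpg, a partner of ATF4 (0.23, SE 0.06, adjusted p = 0.0877), and Slc38a2, a carrier of small neutral amino acids (0.39, SE 0.11, adjusted p = 0.0922). Atf5 passed in 24 of 29 alternatives, Cebpg in 10 of 29 and Slc38a2 in 12 of 29. Atf4 itself had a difference of 0.03 (95% interval -0.06 to 0.11), Ddit3, which encodes CHOP, 0.04 (-0.21 to 0.29), Trib3 0.29 (-0.35 to 0.94) and Asns, the asparagine synthetase, -0.35 (-1.05 to 0.35). Levels of transcripts do not measure the ATF4 protein, whose amount is set at translation.

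Chac1 also belongs to the list of glutathione and NRF2 antioxidant genes, where 4 of 37 members passed and all of these were lower. Of all genes 2.17% passed. Nfe2l2, which encodes NRF2, the factor that switches on antioxidant genes, was lower with GDF15 (-0.20, SE 0.05, adjusted p = 0.0662), and so were 2 genes that NRF2 induces. Nqo1, a quinone reductase, lay at 197 to 272 normalized counts with GDF15 and 301 to 357 in pair-fed mice (-0.40, SE 0.08, adjusted p = 0.0326). Txnrd1, a thioredoxin reductase, lay at 1109 to 1352 and 1373 to 1596 (-0.29, SE 0.06, adjusted p = 0.0322). None of the 3 overlapped between the groups. Txnrd1 passed in 29 of 29 alternatives, Nqo1 in 28 of 29 and Nfe2l2 in 18 of 29. The list's median was -0.04, near that of all genes.

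The Chac1 promoter is printed to show the ATF4 pattern TGATGNAA, found here on the opposite strand as TTGCATCA and starting 193 bases before the first base (GRCm38.p6, chr2:119350992-119351291, + strand, capitals).
Chac1: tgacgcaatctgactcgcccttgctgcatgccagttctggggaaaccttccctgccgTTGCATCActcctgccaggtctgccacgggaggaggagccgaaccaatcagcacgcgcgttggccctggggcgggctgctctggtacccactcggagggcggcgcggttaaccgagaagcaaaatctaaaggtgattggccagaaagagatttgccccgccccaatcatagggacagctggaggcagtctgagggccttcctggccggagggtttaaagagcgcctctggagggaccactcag
It occurs in 2.16% of the promoters of tested genes and, among the called genes, in Chac1 and Gm15446.

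A pair of genes that set the flow of glucose into glycolysis or glycogen changed in opposite directions. Pfkfb3 makes fructose 2,6-bisphosphate, the strongest activator of phosphofructokinase in glycolysis (chr2:11471433-11554077, - strand). It lay at 1481, 1882 and 2971 normalized counts (lowest, median, highest) with GDF15 and at 7528, 3273, 5594, 5412 and 4851 in pair-fed mice 2 to 6. All GDF15-treated mice were below all pair-fed mice, with a difference of -1.38 (SE 0.22, adjusted p = 0.00718), 2.6-fold lower. Vehicle-treated mice had 2207 to 4716, and against them pair-fed mice differed by 0.81 (adjusted p = 0.0609) and GDF15-treated mice by -0.57 (adjusted p = 0.337).

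Ppp1r3c encodes PTG, a subunit that brings protein phosphatase 1 to glycogen and promotes glycogen synthesis (chr19:36731731-36736653, - strand). It lay at 4302, 6438 and 6915 normalized counts (lowest, median, highest) with GDF15 and at 2241, 4356, 2557, 2843 and 1615 in pair-fed mice 2 to 6. The groups overlapped only through GDF15-treated mouse 5, the lowest of its group, and pair-fed mouse 3, the highest of its own. The difference was 1.23 (SE 0.20, adjusted p = 0.00808), 2.35-fold higher with GDF15. Vehicle-treated mice spanned 3298 to 6559.

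Most other glycogen genes had a lower mean with GDF15. Of 30 tested, 22 had a lower mean with GDF15 and 3 passed. The median was -0.08, against an SD between mice of the list's mean level of 0.056. Scaling the libraries to equal sums moved the median of all genes from 0.0025 to 0.045. Ppp1r3a, the main glycogen-targeting subunit of muscle, was lower by a small amount (-0.19, SE 0.05, adjusted p = 0.0779, 19 of 29 alternatives), and Phka1, the regulatory alpha subunit of muscle phosphorylase kinase, likewise (-0.22, SE 0.06, adjusted p = 0.0908, 11 of 29). Pygm, the muscle glycogen phosphorylase, did not pass (-0.16, 95% interval -0.26 to -0.05), nor did Gys1, the muscle glycogen synthase (0.04, -0.07 to 0.15).

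Among 29 tested genes of glycolysis and its regulators, 3 passed and all were lower, with a list median of -0.04. Beside Pfkfb3 these were Pfkfb4, a relative of it (-0.25, SE 0.07, adjusted p = 0.0821), and Tigar, which removes fructose 2,6-bisphosphate (-0.29, SE 0.07, adjusted p = 0.0572). So both a producer and a remover of this activator were among the lower transcripts. Tigar passed in 22 of 29 alternatives and Pfkfb4 in 13 of 29. None of the 14 genes of the pyruvate dehydrogenase list passed limma's test and 1 had an unadjusted p under 0.05. In the figure by mouse, Pfkfb3 and Ppp1r3c show how far the groups lie apart.

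**Figure D2:**
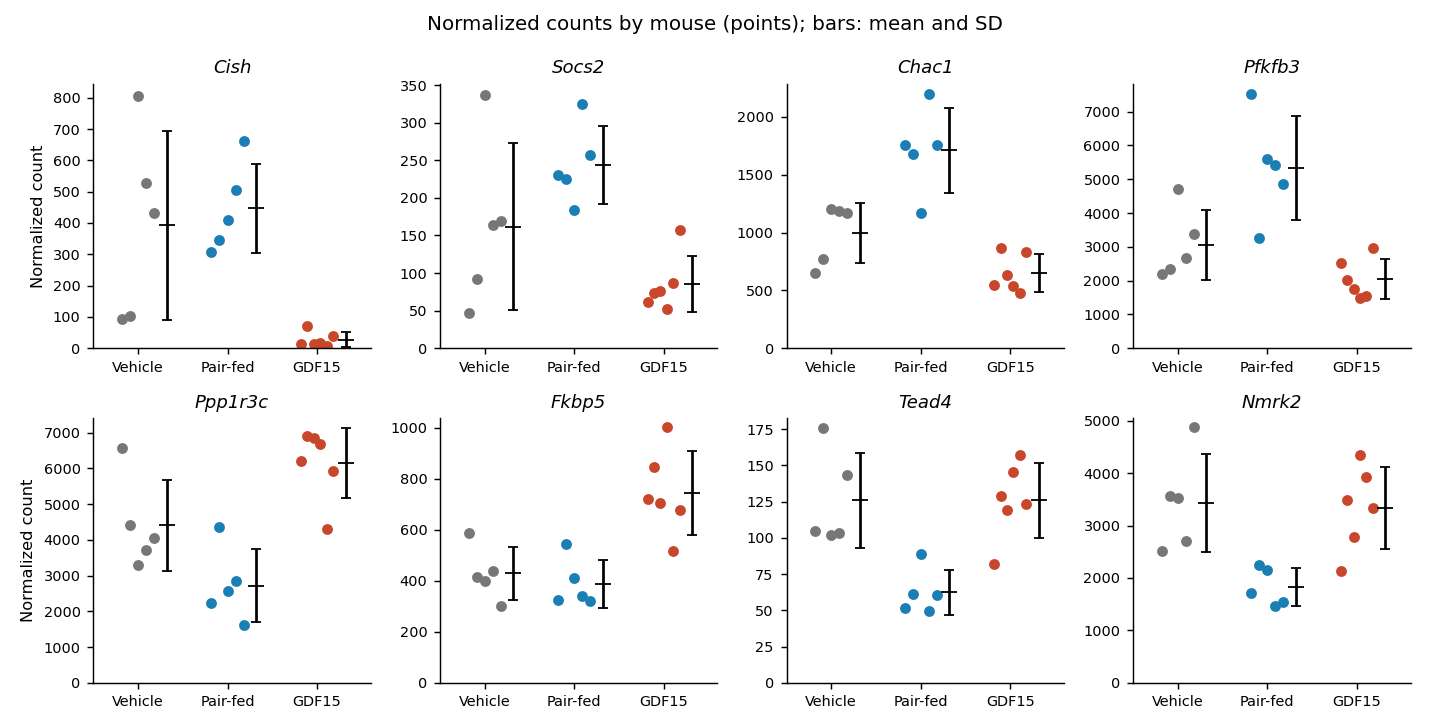
Normalized counts of 8 called genes in each mouse (points; vertical axes start at 0), with the group mean and SD beside the points (vehicle n = 5, pair-fed n = 5, GDF15 n = 6). Cish, Socs2, Chac1 and Pfkfb3 were lower with GDF15 than in every pair-fed mouse, Ppp1r3c and Fkbp5 were higher with overlap, and Tead4 and Nmrk2 were low in pair-fed mice while the other groups lay at like levels.

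The study asked whether beta-adrenergic signalling and calcium cycling in muscle are engaged by GDF15 beyond its effect on food intake. Of the 32 tested genes from the beta-adrenergic receptors to protein kinase A, 0 passed limma's test, and 3 had an unadjusted p under 0.05 (2 higher, 1 lower). More of them had a higher mean with GDF15 (22 of 32, median 0.08) than among all genes, where 50.8% did and the median was 0.0025. Prkaca, a catalytic subunit of protein kinase A, had a difference of 0.04 (-0.04 to 0.12), and Prkar1a, a regulatory subunit, 0.09 (-0.02 to 0.21).

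Phosphodiesterases end the cAMP signal. Of 16 tested, 1 passed: Pde4b, a cAMP-specific form whose transcription cAMP induces. It lay at 717, 785 and 979 normalized counts (lowest, median, highest) with GDF15 and 1304, 876, 1214, 1333 and 1480.1 in pair-fed mice 2 to 6, a difference of -0.57 (SE 0.11, adjusted p = 0.0302) that was just under the 0.6 threshold and passed the test in 29 of 29 alternatives. Among 20 tested cAMP-binding and anchoring proteins, 16 had a higher mean with GDF15 and 1 passed, Popdc3, a cAMP-binding membrane protein of muscle (0.22, SE 0.06, adjusted p = 0.083, 14 of 29 alternatives). On the list of CREB factors and cAMP-induced genes, 40 were tested, 27 had a higher mean with GDF15 and the median was 0.12, while 13 had an unadjusted p under 0.05, 8 higher and 5 lower. After adjustment 2 passed, Ppp1r3c as higher and Pde4b as lower, so the genes of this list did not move one way.

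The Ppp1r3c promoter was searched for the cAMP response element TGACGTCA and its core TGACG, which were not found in this window, and for the E-box CACGTG, found once, 104 bases before the first base (GRCm38.p6, chr19:36736555-36736854, - strand, capitals).
Ppp1r3c: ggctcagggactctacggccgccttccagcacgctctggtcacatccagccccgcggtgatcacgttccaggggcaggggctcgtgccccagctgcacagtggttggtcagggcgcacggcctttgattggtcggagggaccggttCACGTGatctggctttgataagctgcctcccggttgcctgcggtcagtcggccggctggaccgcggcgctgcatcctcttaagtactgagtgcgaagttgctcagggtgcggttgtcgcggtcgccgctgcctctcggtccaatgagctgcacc
On both strands the full element was in 3.32% of promoters of tested genes and in 1 called gene, Pnpla3. TGACG, part of the full element, was in 32.4%, in 3 of 14 higher and 6 of 16 lower genes. CACGTG was in 10.6%, in 4 of 14 higher genes (Ppp1r3c, Fkbp5, Prkcd and Calhm5) and 1 of 16 lower ones (Dhtkd1). ACANNNTGT, a palindrome that the glucocorticoid receptor can bind, was in 3.74%, in 0 of 14 higher and 2 of 16 lower genes.

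Of 44 tested genes of calcium handling by the sarcoplasmic reticulum, the store that releases calcium for contraction, 2 passed as higher and 1 as lower, with a median of -0.05 that moved to -0.01 when the libraries were scaled to equal sums. Slc8a3, a sodium-calcium exchanger, had 1255, 1361 and 1458 normalized counts (lowest, median, highest) with GDF15 and 1905, 1608, 1781, 2167 and 2111 in pair-fed mice 2 to 6. The groups did not overlap (-0.49, SE 0.08, adjusted p = 0.00718), and the test was passed in 29 of 29 alternatives, while against vehicle pair-fed mice differed by 0.57 (adjusted p = 0.00101) and GDF15-treated mice by 0.09 (adjusted p = 0.744). Tmem38b, a potassium channel of the reticulum that balances calcium release, was higher (0.26, SE 0.05, adjusted p = 0.014, 29 of 29), and so was Calhm5, a member of a family of large-pore channels (0.98, SE 0.25, adjusted p = 0.0687), at low counts of 9.88 to 26.8 against 5.75 to 9.80. Calhm5 stayed called in 17 of 28 alternatives.

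The pumps and their regulators showed no called difference. Atp2a1, the calcium pump of fast fibres, lay at 623689 to 640445 normalized counts with GDF15 and 645171 to 718748 in pair-fed mice, without overlap. Yet the difference was -0.11 (95% interval -0.21 to -0.00) and did not pass (adjusted p = 0.358). The study's PCR gave the opposite direction for Atp2a1. Atp2a2, the pump of slow fibres, had a difference of -0.17 (-0.56 to 0.22). Sln, which encodes sarcolipin, a small protein that uncouples the pump, had few counts (7.58 to 27.5 with GDF15, 3.90 to 27.2 pair-fed) and a difference of 0.36 with an interval of -0.44 to 1.16, which did not pass (adjusted p = 0.728). Pln, which encodes the related phospholamban, had a difference of 0.03 (-0.47 to 0.53). On the list of uncoupling, creatine and glycerophosphate cycling, 1 of 16 passed, Gpd2, the mitochondrial glycerophosphate dehydrogenase, as lower (-0.27, SE 0.07, adjusted p = 0.0821, 13 of 29 alternatives). Ucp3, the muscle uncoupling protein, did not pass (-0.13, -0.48 to 0.21).

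Ulk1, Gabarapl1 and Sqstm1, genes of autophagy, were lower with GDF15 than after pair-feeding. Of 38 tested genes on the list of FOXO factors and atrophy genes, 29 had a lower mean with GDF15. The median was -0.07, against an SD between mice of the list's mean level of 0.030. Scaling the libraries to equal sums moved the median of all genes from 0.0025 to 0.045. On the FOXO list 4 passed as lower against 1 as higher. The higher one was Foxo6, with a difference of 0.40, and it is named after its value was seen. Ulk1, the kinase that starts autophagy, lay at 1449.8, 1678 and 1805 normalized counts (lowest, median, highest) with GDF15 and 2364, 1811, 2164, 2346 and 2619 in pair-fed mice 2 to 6. Gabarapl1, a protein of the autophagosome membrane, lay at 635, 698 and 762 and 856, 824, 893, 899 and 1081. Both sets of values were free of overlap, with differences of -0.44 (SE 0.08, adjusted p = 0.0107) for Ulk1 and -0.38 (SE 0.06, adjusted p = 0.00808) for Gabarapl1, and both passed in 29 of 29 alternatives.

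Sqstm1, which encodes the cargo receptor p62, was lower by a smaller step (-0.26, SE 0.06, adjusted p = 0.0354, 26 of 29 alternatives), as was Usp19, a deubiquitinase (-0.14, SE 0.04, adjusted p = 0.0678, 17 of 29). Against vehicle, Gabarapl1 differed by 0.40 (adjusted p = 0.00298) in pair-fed mice and 0.02 (adjusted p = 0.931) with GDF15, and Sqstm1 by 0.36 (adjusted p = 0.00322) and 0.10 (adjusted p = 0.568). These comparisons share libraries with one another and are given side by side only. Of 38 proteasome subunits, 32 had a lower mean with GDF15 (median -0.05, and -0.01 when the libraries were scaled to equal sums), against an SD between mice of the list's mean level of 0.047. Of them 1 passed, Psma5 (-0.19, SE 0.05, adjusted p = 0.0922), in 7 of 29 alternatives, and 0 with equal sums.

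On the insulin receptor and PI 3-kinase list 3 of 39 genes passed, with a median of 0.01, and all 3 are regulators of this kinase or of AKT. Pik3r1, the regulatory subunit p85 alpha, was higher, at 301, 342 and 386 normalized counts (lowest, median, highest) against 226, 310.5, 261, 232 and 248 in pair-fed mice 2 to 6 (0.43, SE 0.09, adjusted p = 0.0322, 29 of 29 alternatives). Pik3ip1, an inhibitor of the same kinase, was lower (-0.41, SE 0.10, adjusted p = 0.062, 21 of 29), and so was Trib2, a pseudokinase (-0.44, SE 0.09, adjusted p = 0.0322, 28 of 29). Against vehicle, Trib2 had -0.46 (adjusted p = 0.0319) with GDF15 and -0.02 (adjusted p = 0.94) in pair-fed mice, and Pik3r1 0.03 (adjusted p = 0.954) and -0.40 (adjusted p = 0.0234).

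The clock genes Arntl, Per3 and Cry2 stood between the vehicle-treated and the pair-fed mice when GDF15 was given. Arntl encodes BMAL1, the activator of the clock, and Per3 and Cry2 encode repressors of it. Arntl lay at 212, 253 and 296 normalized counts (lowest, median, highest) with GDF15, at 183, 174, 191, 155 and 181 in pair-fed mice 2 to 6 and at 329.5 to 452 in vehicle-treated mice. No 2 of these 3 groups overlapped. GDF15 exceeded pair-feeding by 0.50 (SE 0.10, adjusted p = 0.0276), and against vehicle the values were -0.61 (adjusted p = 0.00882) with GDF15 and -1.11 (adjusted p = 1.88e-05) in pair-fed mice.

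Per3 showed the mirror image, at 407 to 481 normalized counts with GDF15, 517 to 602 in pair-fed mice and 285 to 361 in vehicle-treated mice (-0.33, SE 0.07, adjusted p = 0.0297 for GDF15 against pair-fed). Cry2 differed by -0.31 (SE 0.08, adjusted p = 0.0821). Arntl and Per3 each passed in 28 of 29 alternatives and Cry2 in 17 of 29. Of 23 tested clock genes 3 passed, and 10 had an unadjusted p under 0.05.

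Contractile genes of fast fibres had a lower mean with GDF15 than in pair-fed mice in 17 of 19 tested, with a median of -0.09 that became -0.02 under quantile normalization. The 2 that passed were Mylk2, the skeletal myosin light chain kinase, with 18145, 20030.2 and 22858 normalized counts (lowest, median, highest) against 27995, 22445, 24079, 27007 and 28651 in pair-fed mice 2 to 6 (-0.36, SE 0.07, adjusted p = 0.014, 29 of 29 alternatives), and Actn3, the alpha-actinin of fast fibres (-0.27, SE 0.07, adjusted p = 0.0678, 18 of 29). In Mylk2 only GDF15-treated mouse 6 reached the range of the pair-fed mice, above pair-fed mouse 3. Of 16 slow-fibre genes 14 had a higher mean with GDF15 (median 0.20, SD between mice of the list's mean level 0.48), and 0 passed limma's test or reached an unadjusted p under 0.05.

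Most genes of the mitochondrial and chaperone lists had a slightly higher mean with GDF15. Subunits of respiratory complexes II to V had a higher mean with GDF15 in 46 of 49 (median 0.06), with 0 past limma's test and 3 at an unadjusted p under 0.05. On the complex I list it was 41 of 47 (median 0.05), and 1 passed, Ndufaf4, an assembly factor (0.23, SE 0.06, adjusted p = 0.062, 20 of 29 alternatives). For mitochondrial ribosomal proteins it was 57 of 78 (median 0.04), with Mrpl45 (0.20, SE 0.04, adjusted p = 0.0486, 24 of 29 alternatives) and Mrps6 (0.27, SE 0.08, adjusted p = 0.0942, 10 of 29 alternatives) past the test. Cytosolic ribosomal proteins had a median of 0.02, and Rpl12, with few counts for such a gene and with many near-identical copies in the genome, was the 1 of 79 to pass (-0.59, SE 0.16, adjusted p = 0.0852, 13 of 29 alternatives). Scaling the libraries to equal sums moved the median of all genes from 0.0025 to 0.045, a shift as large as several of these medians. The mean level of a list varied between mice of a group by an SD of 0.074 for complexes II to V, 0.057 for complex I and 0.044 for mitochondrial ribosomal proteins (log2 scale), each larger than the list's median difference.

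Heat shock proteins and co-chaperones had a higher mean with GDF15 in 30 of 35 (median 0.10, SD between mice of the list's mean level 0.061). Of the 35, 12 had an unadjusted p under 0.05 and all of these were higher. After adjustment 1 passed, Hspb1, a small chaperone of the sarcomere, at 1700.1 to 2367 normalized counts with GDF15 and 1413 to 1685 in pair-fed mice (0.32, SE 0.07, adjusted p = 0.0486, 23 of 29 alternatives). The PGC-1 list had 0 of 30 past limma's test and 7 at an unadjusted p under 0.05, and Ppargc1a, the coactivator of mitochondrial biogenesis, differed by 0.27 (95% interval 0.06 to 0.48, adjusted p = 0.23).

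**Figure D3:**
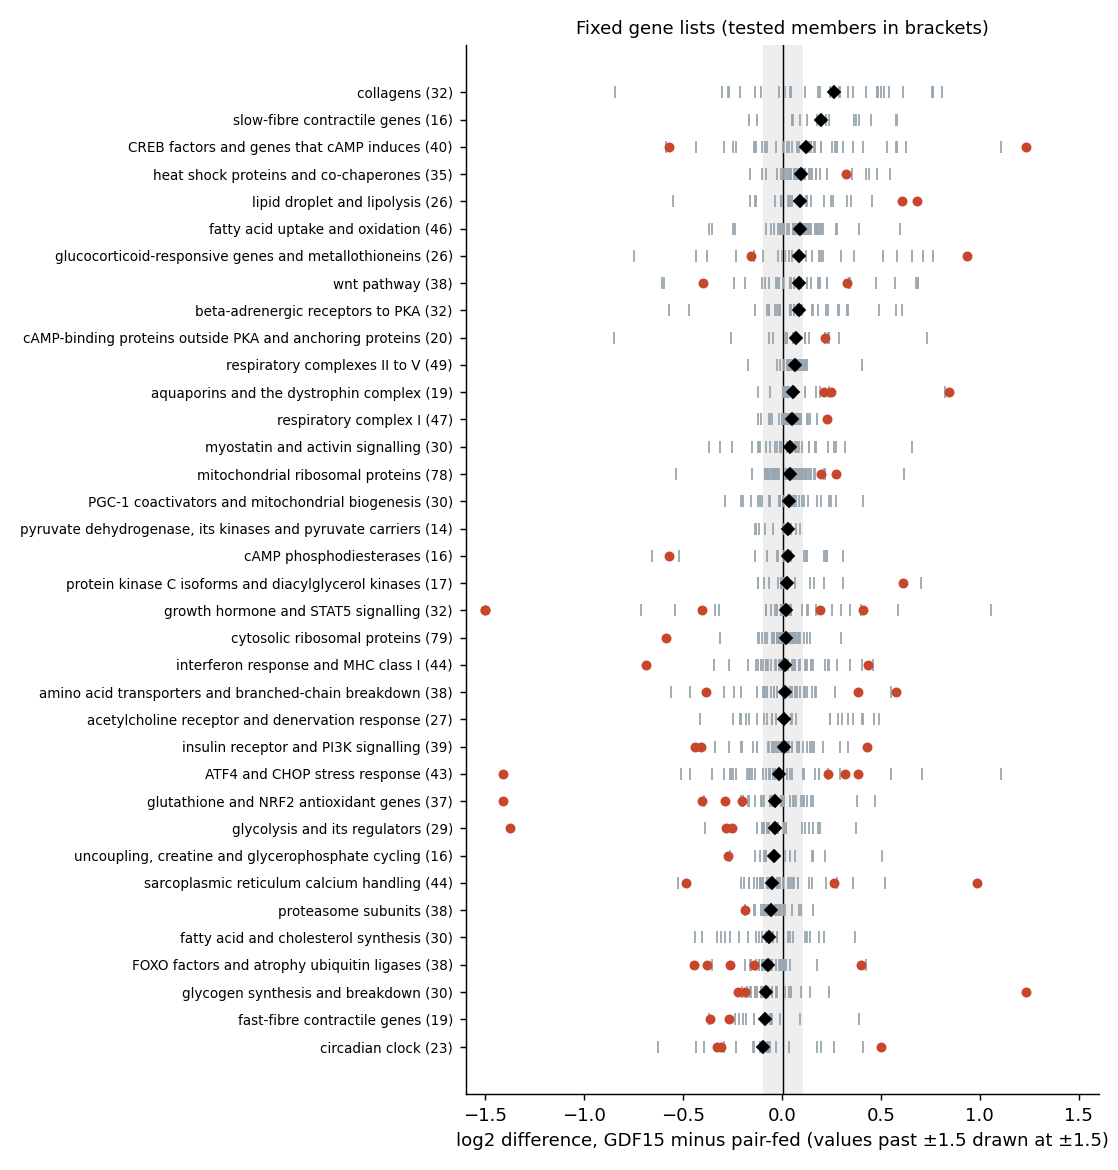
Differences (log2 scale, GDF15 minus pair-fed) of the tested members of each of the 36 gene lists: grey ticks did not pass the test, red points had an adjusted p under 0.1, black diamonds are list medians, and the grey band is the middle 50% of all 11841 genes. Cish and Socs2 are drawn at the left edge; most medians lie inside the band, with collagens, slow-fibre and cAMP-induced genes to its right and the circadian clock just to its left.

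Of 26 tested genes on the list of lipid droplets and lipolysis, 2 passed and both were called as higher. G0s2, an inhibitor of the triglyceride lipase ATGL, lay at 115, 162 and 176 normalized counts (lowest, median, highest) with GDF15 and at 76.7, 113, 104, 102 and 94.3 in pair-fed mice 2 to 6 (0.61, SE 0.13, adjusted p = 0.0398), and was called in 20 of 29 alternatives. Pnpla3, a lipase-like protein of the droplet that feeding induces, had few counts, at 21.4 to 38.5 with GDF15, 12.7 to 19.5 in pair-fed mice and 31.0 to 48.7 in vehicle-treated mice. Neither overlapped between GDF15 and pair-feeding. Pnpla3 differed by 0.68 (SE 0.18, adjusted p = 0.0789), stayed called in 13 of 28 alternatives and shares part of its locus and strand with Gm49513, so reads of both may be mixed.

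Of 46 genes of fatty acid uptake and oxidation 36 had a higher mean with GDF15 (median 0.09), with 0 past limma's test and 5 at an unadjusted p under 0.05, 2 higher and 3 lower. The list's mean level varied between mice of a group by an SD of 0.15, more than this median. Genes of fatty acid and cholesterol synthesis had 21 of 30 lower (median -0.06, SD between mice 0.076), also with 0 past the test in limma and 3 at an unadjusted p under 0.05.

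Aqp4 and Cav3 were higher with GDF15 than in pair-fed mice. Aqp4 is the water channel of the fast fibre membrane. It had 432, 523 and 595 normalized counts (lowest, median, highest) with GDF15, 255, 429, 339, 275 and 193 in pair-fed mice 2 to 6 and 488 to 832 in vehicle-treated mice. The GDF15-treated mice were above all pair-fed mice, only just in the lowest case, with a difference of 0.84 (SE 0.17, adjusted p = 0.0276) that is 1.8-fold, while the difference from vehicle was -0.19 (adjusted p = 0.738) with GDF15 and -1.04 (adjusted p = 0.00353) in pair-fed mice.

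Cav3, the caveolin of muscle, was higher by 0.25 (SE 0.06, adjusted p = 0.0518), without overlap between the groups. On this list of 19 tested genes, 17 had a higher mean with GDF15, 3 passed and all were higher. Aqp4 stayed called in 28 of 29 alternatives, and Cav3 passed in 24 of 29.

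Nmrk2, Tfrc and Flvcr1, which are on no list, were among the called genes and are set together here by their roles. Nmrk2, a muscle kinase that turns nicotinamide riboside into an NAD precursor (chr10:81198170-81202051, - strand), lay at 2137, 3413 and 4339 normalized counts (lowest, median, highest) with GDF15 and at 1721, 2253, 2151, 1472 and 1544 in pair-fed mice 2 to 6. The groups overlapped through GDF15-treated mouse 1, and the difference was 0.85 (SE 0.18, adjusted p = 0.0354), lost without pair-fed mice 5 or 6. Tfrc, the transferrin receptor that takes up iron, lay at 1043 to 2000.5 with GDF15 and 477 to 1245 in pair-fed mice (0.73, SE 0.19, adjusted p = 0.0812, 16 of 29 alternatives). Flvcr1, a membrane carrier linked to haem export and choline uptake, went the other way (112 to 207 against 206 to 482, -1.05, SE 0.25, adjusted p = 0.0577, 22 of 29). Against vehicle, Nmrk2 differed by -0.89 (adjusted p = 0.0162) in pair-fed mice and -0.04 (adjusted p = 0.966) with GDF15, and Tfrc by -0.97 (adjusted p = 0.0146) and -0.24 (adjusted p = 0.696).

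Tead4, a transcription factor that works with YAP and is active in myoblasts (chr6:128224288-128300823, - strand), had 81.8, 126 and 157 normalized counts (lowest, median, highest) with GDF15 and 51.6, 61.2, 89.0, 49.6 and 60.6 in pair-fed mice 2 to 6. The overlap came from GDF15-treated mouse 1 and pair-fed mouse 4, and the difference was 1.01 (SE 0.19, adjusted p = 0.0158), 2.01-fold, in 28 of 29 alternatives. The GDF15-treated mice were at the level of the vehicle-treated mice, at 102 to 176 (0.01, adjusted p = 0.993), and the pair-fed mice below it (-0.996, adjusted p = 0.0103).

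Fkbp5, a co-chaperone that the glucocorticoid receptor strongly induces (chr17:28399094-28517527, - strand), was higher with GDF15. Its level was 518, 713 and 1002 normalized counts (lowest, median, highest) with GDF15 and 325, 544, 412, 341 and 322 in pair-fed mice 2 to 6. The lowest GDF15-treated mouse, number 5, was below pair-fed mouse 3, and the difference was 0.94 (SE 0.17, adjusted p = 0.0155), 1.92-fold. Here the pair-fed mice were at the level of the vehicle-treated mice (-0.14, adjusted p = 0.729) and GDF15-treated mice above it (0.80, adjusted p = 0.0561).

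Other glucocorticoid-responsive genes did not all go with Fkbp5. Of 26 tested, 2 passed, Fkbp5 as higher and Klf9, a transcription factor that glucocorticoids induce, as lower (-0.16, SE 0.03, adjusted p = 0.0354, 26 of 29 alternatives). At an unadjusted p under 0.05 there were 10, 7 higher and 3 lower, and the median was 0.09.

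**Figure D4:**
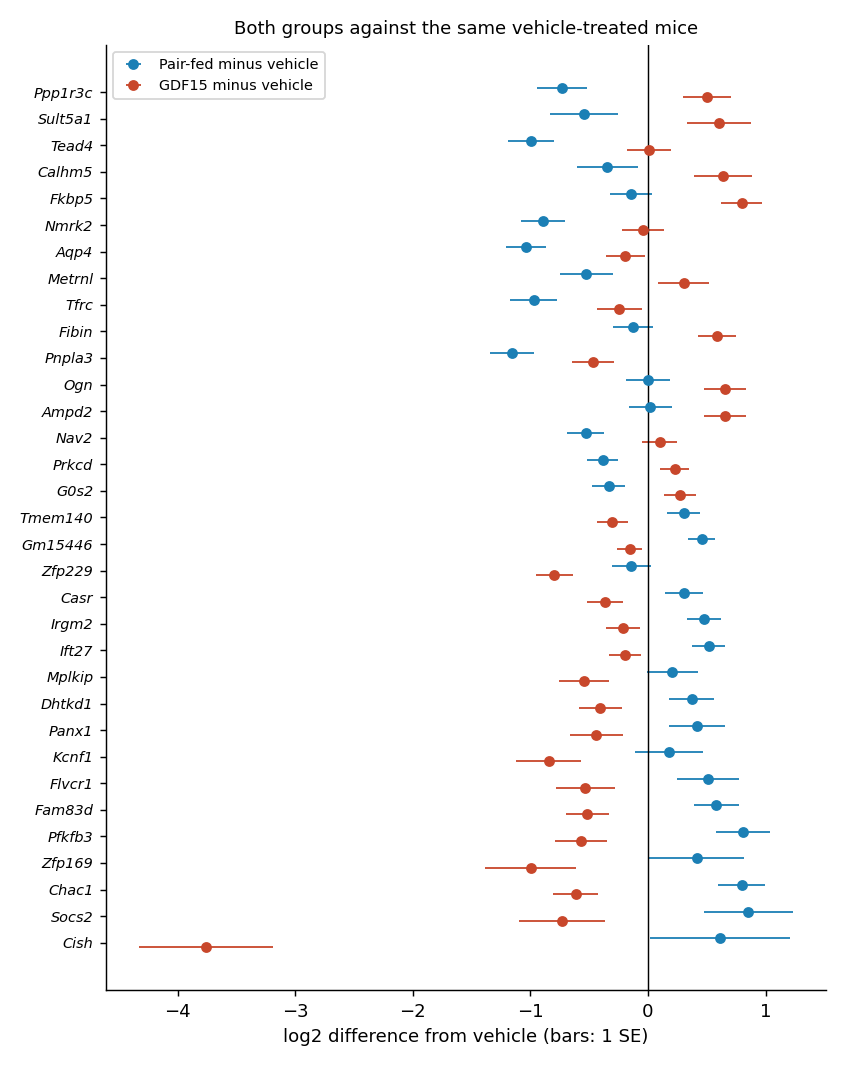
Differences from the 5 vehicle-treated mice (log2 scale, points with 1 SE) of the 33 called genes in pair-fed (blue) and GDF15-treated mice (red), ordered by GDF15 minus pair-fed; both use the same vehicle-treated mice. For Tead4, Nmrk2, Aqp4, Pnpla3 and Tfrc the pair-fed value lies farther from 0, for Cish, Fkbp5, Zfp229, Ogn and Ampd2 the GDF15 value, and for Chac1, Pfkfb3 and Ppp1r3c the 2 values lie on opposite sides.

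Over all genes, 36 (0.304%) were past both thresholds for GDF15 against vehicle and 97 (0.819%) for pair-feeding against vehicle. These 2 comparisons share the vehicle-treated mice, and each shares a group with the comparison of GDF15 with pair-feeding, so the called genes are read here only by their values. Zfp229, a zinc-finger gene, was 1 whose pair-fed value was near vehicle (-0.14, adjusted p = 0.703) while GDF15 was below it (-0.80, adjusted p = 0.0319). Ogn, a small proteoglycan of connective tissue also called osteoglycin, had 0.65 (adjusted p = 0.152) with GDF15 and 0.00 (adjusted p = 0.998) in pair-fed mice. Ampd2, an AMP deaminase, had 0.66 (adjusted p = 0.141) and 0.02 (adjusted p = 0.968).

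The membrane proteins Panx1, Casr and Kcnf1 were lower with GDF15. Panx1, a channel that releases ATP, lay at 44.3 to 119 normalized counts with GDF15 and 112 to 144 in pair-fed mice (-0.86, SE 0.23, adjusted p = 0.0821). Casr, the calcium-sensing receptor, lay at 77.5 to 101 and 104 to 185, without overlap (-0.67, SE 0.15, adjusted p = 0.0486). Kcnf1, a modulatory subunit of potassium channels, lay at 8.52 to 30.5 and 27.4 to 50.3 (-1.02, SE 0.27, adjusted p = 0.0846). Casr stayed called in 25 of 29 alternatives, not on the deposited values nor without GDF15-treated mouse 4 or pair-fed mice 5 or 6, and Panx1 and Kcnf1 in 13 of 29 and 10 of 28.

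Prkcd, the delta form of protein kinase C, was higher with GDF15, at 114, 129 and 149 normalized counts (lowest, median, highest) against 103, 92.3, 77.9, 80.0 and 79.4 in pair-fed mice 2 to 6 (0.61, SE 0.13, adjusted p = 0.0322, 21 of 29 alternatives). It was the 1 of 17 tested genes on its list to pass. Irgm2, an interferon-induced GTPase, was lower (166 to 315 against 267 to 393, -0.69, SE 0.14, adjusted p = 0.0322, 28 of 29), and it overlaps its relative Igtp on the same strand. Irf1, a transcription factor of the interferon response, was higher (0.44, SE 0.12, adjusted p = 0.0922, 10 of 29), so the 2 of 44 interferon genes that passed differed in sign.

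Metrnl, Fibin and Ogn, which encode secreted proteins and are on no list, were among the higher genes. Metrnl, a hormone-like protein that exercised muscle and fat release, lay at 34.9 to 45.4 normalized counts with GDF15 and 11.2 to 32.4 in pair-fed mice (0.82, SE 0.22, adjusted p = 0.0821, 12 of 28 alternatives). Fibin lay at 59.1 to 129 and 42.9 to 68.1 (0.72, SE 0.16, adjusted p = 0.0486, 24 of 29), and Ogn at 278 to 495 and 176 to 375 (0.65, SE 0.18, adjusted p = 0.0922, 12 of 29). Collagens had a higher mean with GDF15 in 24 of 32, with the largest median of the 36 lists (0.26, SD between mice 0.24), and 0 passed limma's test while 4 had an unadjusted p under 0.05. The summed fibroblast markers given above also ran higher with GDF15. Their part in the levels of Ogn, Fibin and the collagens was not tested, and a greater share of cells of a type cannot be told apart from more RNA per cell in whole muscle.

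Amino acid carriers moved in both directions. Slc38a4, a carrier of small neutral amino acids, lay at 1107, 1333 and 1483 normalized counts (lowest, median, highest) with GDF15 and 989.6, 813, 981, 863 and 739 in pair-fed mice 2 to 6. It was higher without overlap (0.58, SE 0.09, adjusted p = 0.00718) in 29 of 29 alternatives, and just under the 0.6 threshold. Slc7a2, a carrier of arginine and lysine, was lower (-0.38, SE 0.10, adjusted p = 0.0799, 17 of 29). Of 38 genes on the list 3 passed, these carriers and Slc38a2, with a median of 0.02. Dhtkd1, a mitochondrial enzyme of lysine breakdown that is on no list, was called as lower (36.0 to 52.6 against 55.4 to 104, -0.78, SE 0.18, adjusted p = 0.0572, 22 of 29).

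In the wnt pathway 2 of 38 genes passed, with opposite signs. Fzd7, a wnt receptor of satellite cells and fibres, was lower (587 to 721 normalized counts against 746 to 937, -0.40, SE 0.07, adjusted p = 0.014, 29 of 29 alternatives), and Lrp5, a co-receptor, was higher (0.33, SE 0.08, adjusted p = 0.0612, 20 of 29). Of the acetylcholine receptor and denervation list (27 tested) and the myostatin and activin list (30 tested), 0 genes passed limma's test, and 3 and 4 had an unadjusted p under 0.05. Such a p was reached by 13.2% of all genes.

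The remaining called genes belong to none of the lists. Fam83d, a protein of the mitotic spindle, was lower without overlap (28.3, 33.5 and 46.4 normalized counts, lowest, median and highest, against 119, 66.1, 68.0, 88.5 and 54.3 in pair-fed mice 2 to 6, -1.10, SE 0.18, adjusted p = 0.00917, 28 of 29 alternatives). Ift27, a small GTPase of cilia, was lower without overlap (55.0 to 78.5 against 88.6 to 133, -0.71, SE 0.13, adjusted p = 0.0182, 28 of 29). Sult5a1, a sulfotransferase, was higher at low counts (17.3 to 28.4 against 6.37 to 15.51, 1.15, SE 0.27, adjusted p = 0.0577, 22 of 28), and Nav2, a neuron navigator protein, was higher (0.63, SE 0.15, adjusted p = 0.0577, 18 of 29).

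The zinc-finger genes Zfp229 (-0.66, SE 0.16, adjusted p = 0.0577, 21 of 29 alternatives) and Zfp169 (-1.41, SE 0.39, adjusted p = 0.0922, 9 of 28) were lower, together with Tmem140 (-0.61, SE 0.13, adjusted p = 0.0424, 18 of 29), Mplkip (-0.75, SE 0.21, adjusted p = 0.0972, 7 of 28) and the predicted gene Gm15446 (-0.61, SE 0.11, adjusted p = 0.0116, 22 of 29). Zinc-finger genes have close relatives that can share reads. Cish, Gm15446, Nmrk2, Tmem140, Dhtkd1, Flvcr1, Mplkip and Ampd2 overlap an annotated gene on the opposite strand, and Irgm2, Nav2 and Pnpla3 one on the same strand. The library kit keeps the strand, and whether the quantification used it is not given in the sources used here. Ampd2 was higher (0.64, SE 0.18, adjusted p = 0.0972, 10 of 29). The calls of Zfp169, Mplkip, Ampd2 and Kcnf1 were the least stable, each kept in at most 10 alternatives.

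**Figure D5:**
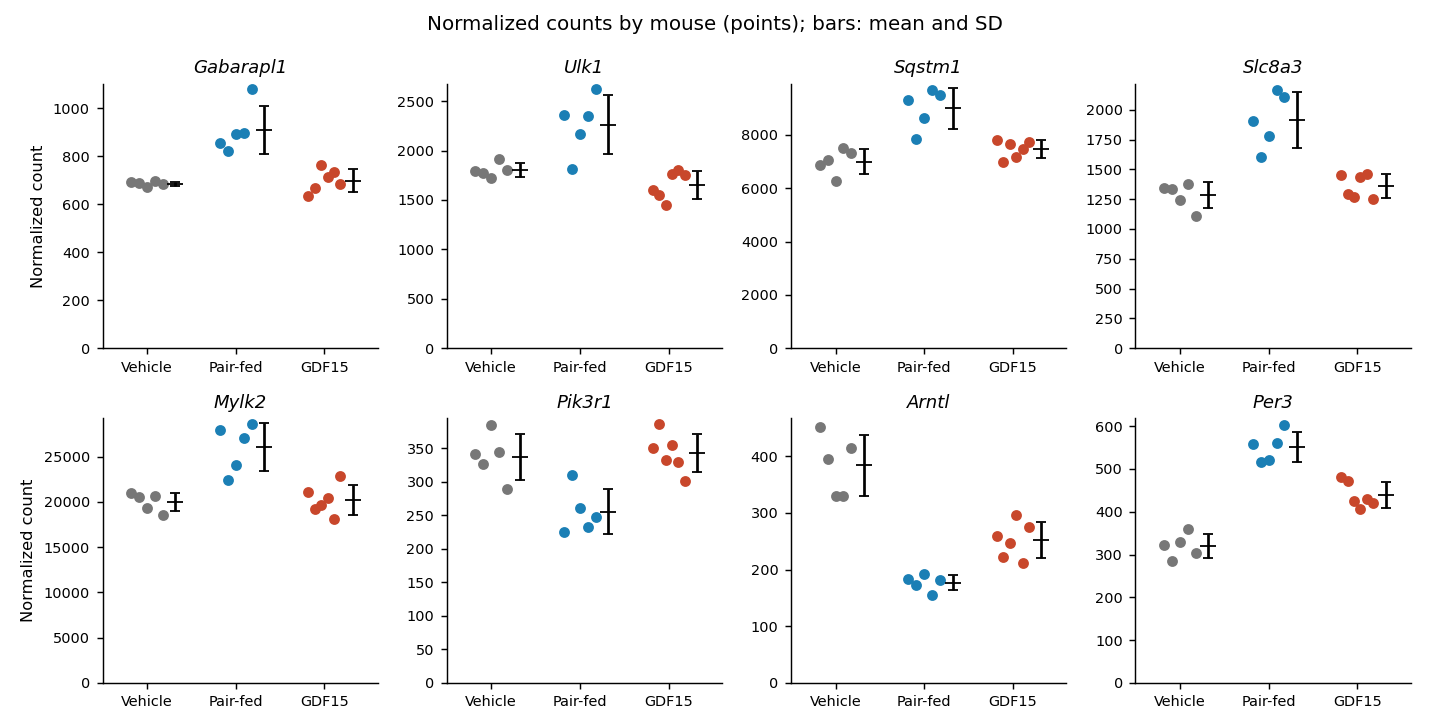
Normalized counts of 8 genes that passed the test with a difference below 0.6 in size, in each mouse (points; vertical axes start at 0), with the group mean and SD beside the points (vehicle n = 5, pair-fed n = 5, GDF15 n = 6). Gabarapl1, Ulk1, Sqstm1, Slc8a3 and Per3 were lower with GDF15 than in every pair-fed mouse, Arntl was higher in every one, and Mylk2 and Pik3r1 overlapped at 1 end.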

How the data were processed

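RNA of the tibialis anterior was sequenced from 6 GDF15-treated, 5 pair-fed and 5 vehicle-treated mice, and groups were taken from the labels. Per the labels and the study's methods, the authors used a directional library kit, ran Trim Galore for trimming, Salmon for quantification on mm10 and DESeq2 for scaling, with versions not given in the sources used here. The authors deposited log2 values after a variance stabilizing transformation, 14538 genes by symbol, between 7.32 and 19.96, with 8459 single values over the 16 libraries at the lowest one. The filter behind these genes is not given. The test had been planned for normalized counts, so the values were transformed back with the inverse of the transformation's closed form. In genes with 1 annotated transcript, 82.5% to 95.2% of low values per library were then within 0.1 reads of whole multiples of 1 step, which gave the approximate depth. For more than 4 transcripts the share was 21.3% to 26.0%, so whole reads were not recovered and no count test was run. At this depth genes near the minimum carry few reads in each library.

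The 11841 genes whose 16 libraries averaged 10 normalized counts or more were tested two-sided on log2(normalized count + 1), a scale that understates changes of low genes, with limma 3.58.1 in R 4.3.3 (eBayes with a trend, all 3 groups in the fit, Benjamini-Hochberg adjustment), after a test on simulated data. Tables were made with Python 3.11.15, pandas 2.3.3 and numpy 2.4.6 and figures with matplotlib 3.10.9. Genes were called at an adjusted p under 0.1 and a log2 difference above 0.6 in size. Positions are from GENCODE vM21 (GRCm38) for 14263 symbols, and promoters from RefSeq for 30 of the 33 called genes.

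The members, the 36 gene lists and the lists of cell type markers were chosen with earlier results of these data known. The genes named are all genes past both thresholds, the members of each list with an adjusted p under 0.1 (at most the 4 smallest), and 22 fixed genes of calcium cycling, growth hormone, cAMP, glycogen and stress signalling. Genes of the closing section with no list, and 2 list members marked as such, were named after their values were seen. Same-numbered mice of different groups are different animals, and the correlation of their deviations lay between -0.0616 and 0.0665. That correlation does not show whether food was matched mouse by mouse. Other pseudocounts, minimum counts, scalings, models, the replicate block, depth as a covariate and each library left out were tried. Some genes that the naming rule covers are not reported here.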

Additional observations from a re-analysis of the deposited data

Results flagged for a closer look

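Each named gene was looked at for a mouse far from the others of its group, by Dixon's ratio of the gap to the range on the log2(normalized count + 1) scale, in 192 sets of 5 or 6 mice. In 6 of them the ratio was above the 95% critical value (0.71 for 5 mice and 0.625 for 6). Chance gives about 1 in 20 when sets are independent. Here the sets share mice, and most of the genes were named for a small p in these same mice. The 6 of 192 therefore cannot be set against that rate.

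Ppp1r3c had a ratio of 0.678 in GDF15-treated mouse 5, whose 4302 normalized counts lay below the 5934 to 6915 of the other 5 mice. This mouse made the overlap with the pair-fed group, and the gene stayed called without it. Nqo1 had a ratio of 0.662 in GDF15-treated mouse 4, at 197 against 244 to 272. Rpl12 had 0.727 in pair-fed mouse 3, at 78.1 against 96.4 to 104. Atp2a2 had 0.666 in GDF15-treated mouse 1, at 963 against 461 to 589.8. Stat5b had 0.717 in pair-fed mouse 4, at 3826 against 3154 to 3331. Socs3 had 0.777 in pair-fed mouse 6, at 77.2 against 27.8 to 35.0.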

How the results depend on the processing

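The direction of the difference between GDF15 and pair-feeding was the same for every one of the 33 called genes under each alternative that tested it. Among the named genes that did not pass, Pln turned to -0.011 with library weights, -0.0036 with quantile normalization and -0.031, -0.064 and -0.21 without GDF15-treated mouse 2, GDF15-treated mouse 5 and pair-fed mouse 6 (range -0.21 to 0.16 with 1 mouse left out), and Ddit3 to -0.013 with the replicate block and -0.0099 without GDF15-treated mouse 1 (range -0.0099 to 0.11). The 33 called genes became 7 (3 higher, 4 lower) on the deposited values, whose scale compresses the differences of genes with few counts, and 18 at an adjusted p under 0.05. With only the 2 groups in the fit 22 were called and 9 of them were higher, against 16. The 257 genes past the test became 115 with no trend, 122 with only the 2 groups and 107 with depth as a covariate. With the mouse number as a replicate block 29 genes were called and 190 passed the test. Whether food was matched by mouse number is not given in the sources used here. The cause of these shifts was not tested.

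Leaving out 1 mouse at a time gave 15 to 62 called genes, 7 to 34 higher and 8 to 28 lower, and 66 to 372 genes past the test. Of the 33, 13 stayed called without pair-fed mouse 5, 13 without pair-fed mouse 6, 15 without pair-fed mouse 2, 17 without GDF15-treated mouse 4, 18 without GDF15-treated mouse 2 and 30 without pair-fed mouse 3. Without GDF15-treated mouse 3, 166 genes passed the test. The depth is approximate, and counting error is largest for genes of few counts, such as Sln, Calhm5 and Zfp169.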

Other observations

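Genes outside the lists had some of the smallest adjusted p-values of the comparison, with differences too small to be called. They are given here as values and were named after these were seen. Klhl21, an adaptor of a ubiquitin ligase, had the smallest of all genes, at 3030.2 to 3524 normalized counts with GDF15 and 3873 to 4485 in pair-fed mice, a difference of -0.42 (SE 0.05, adjusted p = 0.000443). Hgs, a protein that sorts ubiquitinated cargo at endosomes, was lower by a like amount (312 to 361 against 410.5 to 471, -0.41, SE 0.06, adjusted p = 0.00243), and so were Zfand5, a zinc-finger protein that stimulates the proteasome (-0.36, SE 0.06, adjusted p = 0.00718), Ddi2, a protease that activates the factor NRF1 (-0.58, SE 0.10, adjusted p = 0.0122), and Fnip1, a partner of folliculin in AMPK and mTORC1 signalling (-0.44, SE 0.07, adjusted p = 0.0107). None of these 5 overlapped between the GDF15-treated and the pair-fed mice, and each passed the test in 29 of 29 alternatives.

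Ky, a protein of the muscle Z-disc, was lower without overlap (3766 to 4311 normalized counts with GDF15 against 4912 to 6891, -0.52, SE 0.08, adjusted p = 0.00718). Rrs1, a ribosome assembly factor, was lower as well (-0.41, SE 0.07, adjusted p = 0.0116). Among higher genes without overlap were Sec14l5, a lipid-transfer protein family member (726 to 809 against 537 to 655, 0.40, SE 0.06, adjusted p = 0.00407), Trim35, a ubiquitin ligase (0.35, SE 0.05, adjusted p = 0.00718), and Fgfr1, a receptor of fibroblast growth factors (931 to 1025 against 648 to 803, 0.41, SE 0.06, adjusted p = 0.00718). Vehicle-treated mice lay at 3074 to 3452 for Klhl21, 759.6 to 889 for Sec14l5 and 758 to 930.3 for Fgfr1.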
